A study of Mus musculus with 11 samples.

Results

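The 7 genes Cd74, H2-Aa, H2-Ab1, H2-Eb1, H2-DMa, H2-DMb1 and Ciita encode core parts of MHC class II antigen presentation and were chosen by name. All 7 were among the 2500 genes measured in brown adipose tissue (BAT), the heat-producing fat depot, and 1 of them, Ciita, was among the 2500 genes measured in liver. RNA was sequenced from 3 BAT libraries of Cre mice (Cre 4, 5 and 6), 2 BAT libraries of control mice (controls 1 and 2), 3 liver libraries of Cre mice (Cre 10, 11 and 12) and 3 liver libraries of control mice (controls 7, 8 and 9). Cre mice had received AAV-Cre, a virus that delivers a recombinase able to excise floxed sequence, and control mice AAV-GFP. The injection was made in the preBötC (pre-Bötzinger complex), the site in the medulla where the rhythm of breathing arises. All mice, controls included, carried floxed alleles of Adcyap1r1, the gene of a receptor for the neuropeptide PACAP (genotype labelled Acypap1r1 floxed/floxed), and all underwent a procedure called SEFL. Sex, age, strain and the promoter driving Cre are not given in the sources used here, and neither is whether each library is a mouse of its own, so the p-values speak only of spread between these libraries. Neither table lists Adcyap1r1, and its level in fat or liver would not check a deletion made in the brainstem.

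MHC class II molecules display peptides from engulfed proteins to CD4+ T cells. Dendritic cells, macrophages and B cells are the main cells that carry them, and in fat they are found largely on such immune cells among the adipocytes. An alpha and a beta chain are assembled on the invariant chain, which blocks the groove until H2-DM exchanges its remnant for a peptide. Transcription of the whole set depends on the coactivator CIITA, which is recruited to proteins bound at X and Y boxes upstream of these genes and is itself induced by interferon gamma.

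In the GENCODE release of GRCm38, 5 of the 7 genes lay close together in the MHC on chromosome 17, from position 34119541, the start of H2-DMa, to position 34316674, the end of H2-Eb1. H2-DMb1 spanned 34153072 to 34160230, H2-Ab1 34257689 to 34269419 and H2-Aa 34282744 to 34287823. Ciita lay on chromosome 16 (10480059 to 10528418), and Cd74 on another chromosome. RefSeq promoter sequence of build GRCm38.p6 was at hand for 4 of the 7 genes, and for H2-DMb2 and H2-Ob, further class II genes that are described below. The stretches shown run from position -150 to -31 relative to the start site, 5′ to 3′ on the strand of the gene, because they hold the letters through which this set of genes is known to be controlled together. Capitals mark matches to CNNATGATG, letters of the X box, and to TGATTGG, letters of the Y box. The letters were chosen after these windows had been seen.
H2-Aa (chr17:34287854-34287973, minus strand): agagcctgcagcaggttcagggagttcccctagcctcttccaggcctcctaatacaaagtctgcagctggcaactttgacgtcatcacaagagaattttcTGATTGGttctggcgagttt
H2-Eb1 (chr17:34305717-34305836, plus strand): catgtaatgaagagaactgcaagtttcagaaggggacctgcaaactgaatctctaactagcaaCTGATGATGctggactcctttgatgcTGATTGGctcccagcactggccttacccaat
H2-DMb1 (chr17:34153041-34153160, plus strand): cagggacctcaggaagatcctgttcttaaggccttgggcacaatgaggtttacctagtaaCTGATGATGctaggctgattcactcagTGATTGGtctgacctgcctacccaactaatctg
H2-DMb2 (chr17:34145099-34145218, plus strand): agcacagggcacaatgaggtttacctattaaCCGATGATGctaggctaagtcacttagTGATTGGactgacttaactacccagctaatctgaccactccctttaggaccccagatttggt
H2-Ob (chr17:34238755-34238874, plus strand): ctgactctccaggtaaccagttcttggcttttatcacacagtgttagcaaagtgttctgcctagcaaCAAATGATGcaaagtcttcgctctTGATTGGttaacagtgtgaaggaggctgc

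In H2-Eb1, H2-DMb1, H2-DMb2 and H2-Ob both sets of letters occurred once, on the strand of the gene, with 17, 18, 18 and 15 bases between them. H2-Aa held the Y box letters alone, and neither of the 2 H2-DMa windows held either set. Searched on both strands in windows from 250 bases before to 50 bases after the start, the X box letters occurred in 902 of 32851 promoter windows (2.75%), the Y box letters in 2568 (7.82%) and both in 57 (0.174%), which belonged to 54 genes. The letters were chosen after the class II windows had been seen, so these shares cannot test whether class II genes hold them more often. A match describes the letters and is no evidence of binding. The lack of a match, as for the X box letters in H2-Aa, does not show that a box is absent.

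Values are the authors' z-scores: for every gene, each library is given as its distance from the gene's mean in SDs of that gene over 6 libraries of the tissue. A z-score cannot exceed 2.24 with 6 libraries, and it keeps neither the level nor the fold difference, so genes cannot be ranked by abundance. Sequencing depth is unknown. The BAT scaling included 1 further library that is not analysed here. The labelled tissue could not be checked, since 1 of 10 adipocyte markers (Lep) was in the BAT table and a z-score does not show how high a marker is. In bulk tissue, fewer cells of a type and less RNA per cell cannot be told apart.

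In BAT all 7 class II genes were highest in a single library, control 1, and none differed between Cre and control beyond the spread of the libraries. Cre 5 was second highest for all 7. Cre 4, Cre 6 and control 2 shared the low end. Over the 7 genes the mean z-score was -0.77, 0.22 and -0.85 in Cre 4, 5 and 6, against 1.99 and -0.69 in controls 1 and 2. Control 1 was also the highest library for 70.7% of all 2500 BAT genes, and control 1 with Cre 5 next for 28.2%. The members' place at the top of control 1 is therefore one that most genes of this table share.

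**Figure D1:**
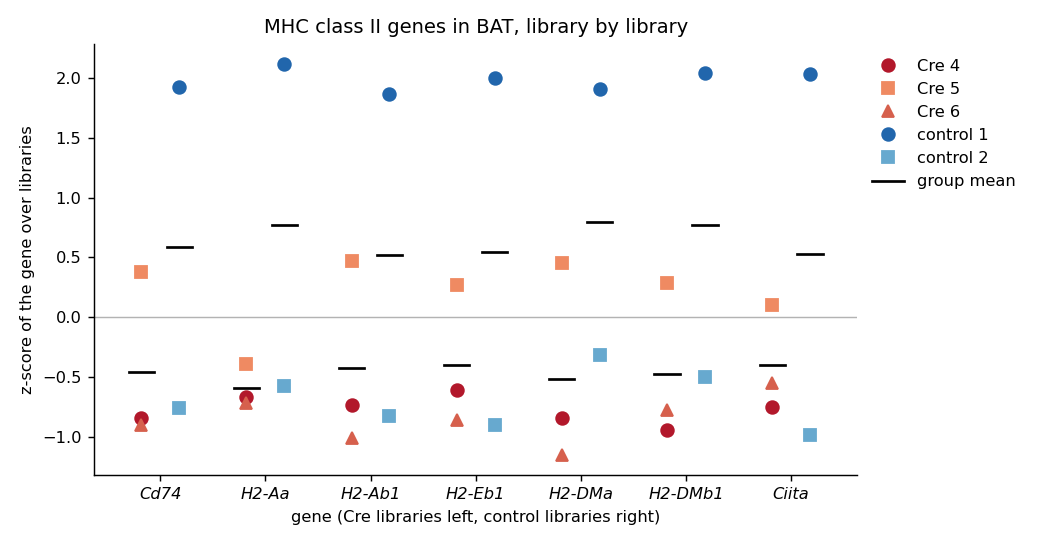
The z-score of each of the 7 genes in each BAT library, with Cre libraries on the left and control libraries on the right of each gene and bars at the group means. Control 1 lies between 1.87 and 2.12 for all 7 genes, while control 2 lies among or below the Cre libraries.

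The peptide-binding chains come first. H2-Aa, the alpha chain of the I-A molecule, had z-scores of -0.67, -0.39 and -0.72 in Cre 4, 5 and 6, against 2.12 and -0.58 in controls 1 and 2. All libraries but control 1 lay close together, and control 2 lay within the Cre range. H2-Ab1, the beta chain that pairs with it, had -0.74, 0.47 and -1.01 in Cre 4, 5 and 6, against 1.87 and -0.83 in controls 1 and 2. Here Cre 5 stood well above the other Cre libraries. H2-Eb1, the beta chain of the I-E molecule, had -0.60, 0.27 and -0.86 in Cre 4, 5 and 6, against 2.0 and -0.90 in controls 1 and 2. For this gene control 2 was the lowest of the 5 libraries. H2-Aa thus had the lowest Cre 5 value and the highest control 1 value of the 7 genes, and its partner H2-Ab1 the highest Cre 5 and the lowest control 1 value.

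Cd74, the invariant chain that escorts class II molecules, had z-scores of -0.84, 0.38 and -0.90 in Cre 4, 5 and 6, against 1.93 and -0.76 in controls 1 and 2. Control 2 lay inside the range of the Cre libraries. Of all members Cd74 lay closest to the mean profile of the 7, at a root mean squared difference of 0.089 over the 5 libraries, and H2-Aa farthest, at 0.29. Cd74 and H2-Ab1 formed the most alike pair, differing by 0.089, and H2-Aa and H2-DMa the least alike pair, differing by 0.46.

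H2-DMa and H2-DMb1 encode the chains of H2-DM, the exchanger that loads peptides. H2-DMa had -0.84, 0.45 and -1.15 in Cre 4, 5 and 6, against 1.91 and -0.31 in controls 1 and 2. H2-DMb1 had -0.94, 0.29 and -0.78 in Cre 4, 5 and 6, against 2.04 and -0.50 in controls 1 and 2. For both genes control 2 came next after Cre 5. H2-DMb2, a neighbouring copy of the beta chain gene, had -0.63, 0.51 and -0.65 in Cre 4, 5 and 6, against 2.02 and -0.81 in controls 1 and 2. The longest protein-coding transcripts of H2-DMb1 and H2-DMb2 were identical at 1142 of 1211 aligned bases (94.3%), so reads of either gene are uncertain.

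Ciita, the coactivator on which the set depends, had -0.75, 0.10 and -0.55 in Cre 4, 5 and 6, against 2.03 and -0.98 in controls 1 and 2. It held the lowest control 2 value of the 7 genes. The regulator and its targets thus shared the control 1 peak, as did 70.7% of all BAT genes. Over the 7 genes the values in Cre 5 ranged widest, from -0.39 to 0.47, and those in control 1 narrowest, from 1.87 to 2.12. Values in control 1 lay close to the z-score ceiling of 2.24, which leaves them little room to differ.

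The comparison of Cre with control asks whether the procedure in the brainstem was accompanied by a different class II level in fat. All 7 genes had a lower Cre mean, as did 82.5% of all BAT genes. H2-Aa averaged -0.59 ± 0.18 in Cre (SD, n = 3) and 0.77 ± 1.91 in control (SD, n = 2). Its difference of -1.36 had a standard error of 1.01 and an adjusted p of 0.531 (limma, a linear model for each gene). Ciita averaged -0.40 ± 0.44 in Cre (SD, n = 3) and 0.53 ± 2.13 in control (SD, n = 2). Its difference of -0.93 had a standard error of 1.17 and an adjusted p of 0.609. The other 5 differences lay between these, with adjusted p from 0.531 to 0.602, and the median over the 7 was -1.04, against -1.29 over all genes tested. None of the 7 passed an adjusted p of 0.05 (0.00% of all 2500 genes passed in either direction), and none had an unadjusted p under 0.05, with or without variance moderation. Over all BAT genes 10.5% were lower and 0.920% higher in Cre at that unadjusted level, and 8.36% and 0.680% with moderation. In none of the 7 did the 3 Cre libraries lie on 1 side of both controls, whereas this was so for 33.0% of all BAT genes (28.7% lower and 4.36% higher in Cre).

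The lower Cre means rested on control 1. With control 1 left out, Cre minus control ranged from -0.20 (H2-DMa) to 0.58 (Ciita), 5 of the 7 genes had a higher Cre mean, and the median was 0.30, while 49.4% of all BAT genes had a lower Cre mean. With control 2 left out, it ranged from -2.71 (H2-Aa) to -2.29 (H2-Ab1). H2-Aa then passed, with an adjusted p of 0.0379, as did 18.3% of all genes tested in the lower direction and 0.0848% in the higher. All 3 Cre libraries lay below control 1 for all 7 genes, and for 77.0% of all BAT genes. That fit compares the Cre libraries with control 1 alone and assumes that this library varies as they do. With Cre 5 left out the groups did not overlap for 4 of the 7 genes, against 42.0% of all BAT genes with Cre lower. Without control 1 they did not for 2 of the 7, against 18.5% with Cre higher. The mean over the 7 genes differed by -1.11 with all libraries, 0.23 without control 1 and -2.45 without control 2.

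**Figure D2:**
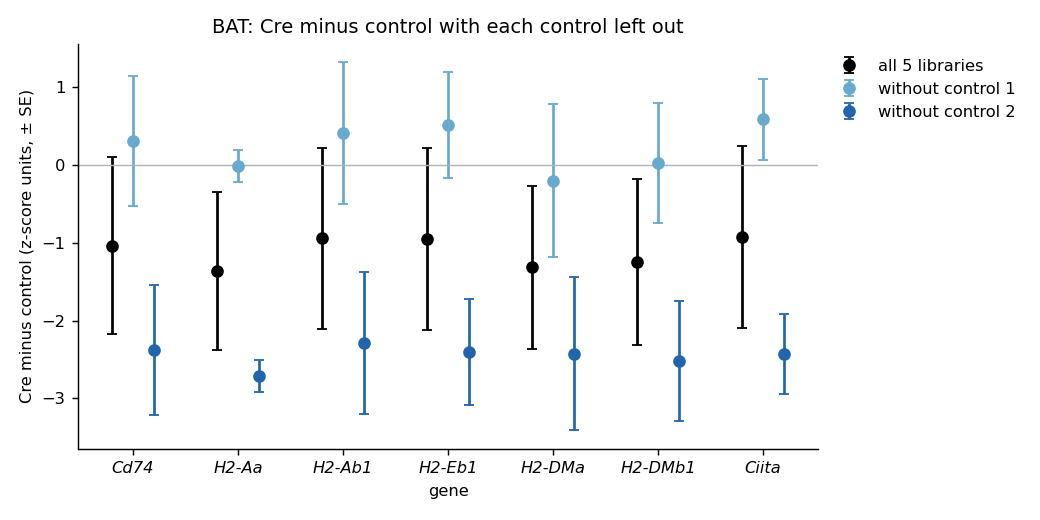
Cre minus control for each of the 7 genes in BAT, in z-score units with standard errors, from all 5 libraries and with either control left out. Without control 1 the values lie around 0, from -0.20 to 0.58, and without control 2 all lie at or below -2.29.

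Further genes of the pathway shared the control 1 peak, and varied in the order below it. Of 22 other class II genes, regulators and processing enzymes 6 were in the BAT table, and none passed the test. All 6 were highest in control 1 and had a lower Cre mean, as for 70.7% and 82.5% of all BAT genes. Their mean was -0.37, 0.04 and -0.99 in Cre 4, 5 and 6, against 1.98 and -0.69 in controls 1 and 2. Ctss, the cathepsin that trims the invariant chain, had -0.66, -0.06 and -0.83 in Cre 4, 5 and 6, against 2.15 and -0.47 in controls 1 and 2. Ifi30, a thiol reductase that prepares antigens in endosomes, had -0.07, 0.30 and -0.91 in Cre 4, 5 and 6, against 1.88 and -1.24 in controls 1 and 2. Cd83, which keeps class II molecules at the surface, had -0.65, 0.11 and -1.11 in Cre 4, 5 and 6, against 1.98 and -0.59 in controls 1 and 2. All 3 had control 1 first and Cre 5 second, which was not so for every gene of the 6. Cd40, a receptor for T cell help, had 0.37, -0.09 and -1.50 in Cre 4, 5 and 6, against 1.72 and -0.75 in controls 1 and 2, with Cre 4 second. Cd86, a costimulatory molecule of antigen-presenting cells, was picked after its values were seen. It had -0.56, -0.54 and -0.93 in Cre 4, 5 and 6, against 2.10 and -0.26 in controls 1 and 2. Cd86 was the single gene of the 6 whose groups did not overlap, with Cre lower, as for 28.7% of all BAT genes. Control 2 was second for this gene. Cd40 was likewise picked after its values were seen.

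Class I genes, which present peptides from inside the cell, had 17 of 27 listed members in the table. All 17 were highest in control 1, as were 70.7% of all BAT genes. Their mean was -0.76, 0.07 and -0.63 in Cre 4, 5 and 6, against 2.07 and -0.66 in controls 1 and 2. H2-K1 and H2-D1, classical heavy chains with near-identical relatives, differed between Cre and control by -1.14 and -1.20, and Tap1, a subunit of the peptide transporter, by -0.98. B2m, the light chain, had -0.83, -0.40 and -0.53 in Cre 4, 5 and 6, against 2.17 and -0.39 in controls 1 and 2. It was the single gene of the 17 without overlap, since Cre 5 at -0.395 lay just below control 2 at -0.393. The Cre libraries lay wholly below the controls for 28.7% of all BAT genes. None of the 17 passed the test.

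The stretch of chromosome 17 from H2-DMa to H2-Eb1 holds 11 protein-coding genes in the annotation, 5 of them members, and 5 of the 6 others were in the BAT table. These were H2-DMb2, Psmb9, Tap1, Psmb8 and Tap2, named after their values were seen. All 5 were highest in control 1, as were 70.7% of all BAT genes. Psmb8 and Psmb9, subunits of the immunoproteasome, had 2.14 and 2.15 in control 1 and -0.06 and 0.06 in Cre 5. Tap2, the partner of Tap1, had the widest second peak of the interval, with 1.01 in Cre 5 and 1.59 in control 1. H2-Ob, the 6th, was in the liver table only.

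Genes of the interferon gamma pathway, which induces Ciita, were in the table for 17 of 22 listed. The mean was -0.50, -0.32 and -0.44 in Cre 4, 5 and 6, against 1.99 and -0.57 in controls 1 and 2. Control 1 was the highest library for 16 of the 17, and for 70.7% of all BAT genes. Irf1, a transcription factor induced by interferon gamma and a direct activator of Ciita, had -0.68, 0.20 and -0.59 in Cre 4, 5 and 6, against 2.10 and -0.84 in controls 1 and 2. Cxcl9, a chemokine induced by interferon gamma, had 2.22 in control 1 and between -0.62 and -0.32 in the other libraries. Cre 5, second for all class II members, lay among the low libraries for Cxcl9 and above them for Irf1. The exception was Ido1, an enzyme of tryptophan breakdown, which was lowest in control 1 at -1.06. None of the 17 passed the test.

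The dendritic cell and macrophage markers in the table were highest in control 1, as were 70.7% of all BAT genes. The few B cell markers were mixed. Of 16 dendritic cell markers 10 were in the table, all highest in control 1, with a mean of -0.60, -0.06 and -0.79 in Cre 4, 5 and 6, against 2.0 and -0.59 in controls 1 and 2. Flt3, a receptor needed for dendritic cell development, had 2.21 in control 1 and between -0.69 and -0.28 in the other libraries. Of 16 macrophage markers 12 were in the table, all highest in control 1, with a mean of -0.82, 0.31 and -0.92 in Cre 4, 5 and 6, against 1.93 and -0.58 in controls 1 and 2. Csf1r, the receptor for the macrophage growth factor, had -0.53, 0.60 and -1.33 in Cre 4, 5 and 6, against 1.74 and -0.71 in controls 1 and 2. The dendritic cell and macrophage means both put the libraries in the same order as the class II means, Cre 5 included. The share of all genes with this order was not counted. Of 20 B cell markers 3 were in the table, and Cd79a and Ms4a1 were not among them. The 3 averaged -0.56, 0.31 and -0.33 in Cre 4, 5 and 6, against 0.53 and -0.25 in controls 1 and 2. Control 1 was highest for 2 of the 3. Cd37, a tetraspanin of B and other immune cells, had 1.95 in control 1 and 0.42 in Cre 5, while Ly6d was lowest in control 1 at -1.87. Of 18 T and NK cell markers 17 were in the table, all highest in control 1, with a mean of -0.49, -0.26 and -0.49 in Cre 4, 5 and 6, against 2.18 and -0.59 in controls 1 and 2. The 4 listed genes of the Y chromosome, all in the table, averaged -0.55, -0.48 and -0.22 in Cre 4, 5 and 6, against 2.21 and -0.52 in controls 1 and 2. The hepatocyte and skeletal muscle markers had other profiles. The 8 of 10 hepatocyte markers in the BAT table averaged -0.67, -0.10 and 1.89 in Cre 4, 5 and 6, against 0.08 and -0.74 in controls 1 and 2. All were highest in Cre 6 but Cyp2e1, which had 0.71 in Cre 5 and 0.34 in Cre 6. The 10 skeletal muscle markers averaged -1.88, 0.09 and 0.09 in Cre 4, 5 and 6, against 1.08 and 1.02 in controls 1 and 2. Control 1 was highest for 7 of these and control 2 for the rest. For all 10 the Cre libraries lay wholly below the controls, as for 28.7% of all BAT genes. The part of other tissue, of immune cell content or of the animal's sex in the class II values was not tested.

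**Figure D3:**
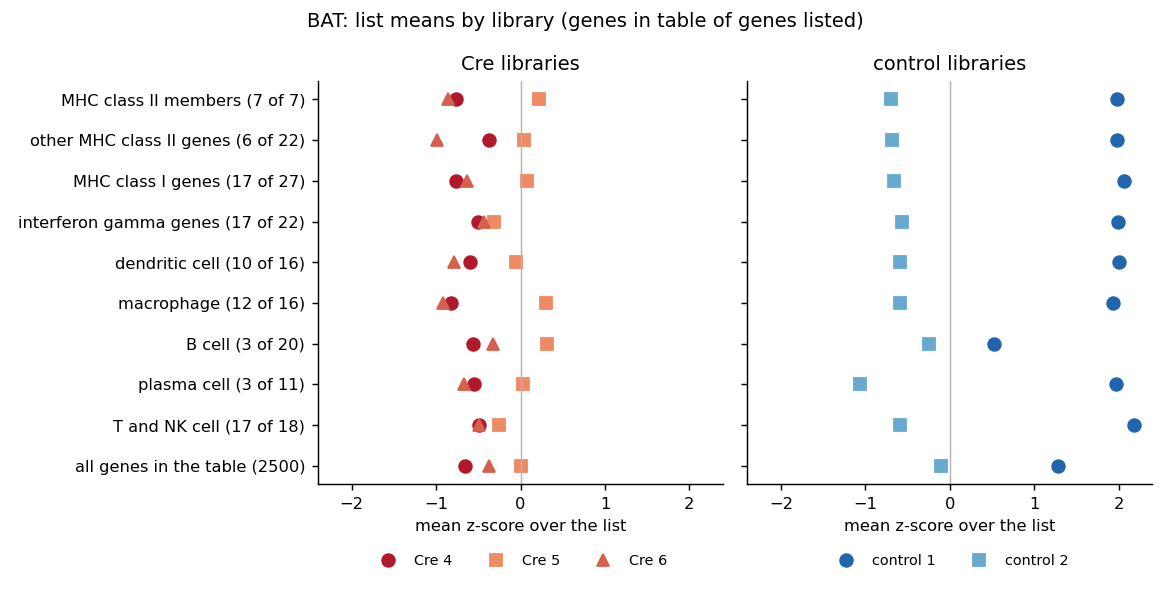
Mean z-score of each gene list in each BAT library, with Cre libraries in the left panel and control libraries in the right panel, beside all 2500 genes. For the class II members, class I genes, interferon gamma genes and dendritic, macrophage, plasma and T and NK cell markers control 1 lies between 1.93 and 2.18, and control 2 lies below 0.

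The class II profile was one of many like it in the table. Apart from the members, 220 of 2493 BAT genes (8.82%) lay within a root mean squared difference of 0.25 of the mean profile of the 7 genes over the 5 libraries. The 5 nearest were Osbpl10, Lyz2, Wdfy4, Zmynd15 and Psmb10, at 0.063, 0.069, 0.084, 0.087 and 0.089. Lyz2 encodes the lysozyme of myeloid cells, and Wdfy4 a protein that dendritic cells need for cross-presentation. Whether genes of such cells are frequent among the 220 was not tested. The member H2-Aa, at 0.29, itself lay outside the limit of 0.25. Lyz2 had -0.69, 0.16 and -0.87 in Cre 4, 5 and 6, against 2.01 and -0.80 in controls 1 and 2. The value in control 1 was at least as high as the lowest of the members for 47.7% of all BAT genes.

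In liver Ciita was likewise highest in a single control library, control 8. Its Cre mean was lower than its control mean, as for 60.4% of liver genes. It had -1.04, -0.11 and -0.55 in Cre 10, 11 and 12, against -0.04, 2.11 and -0.37 in controls 7, 8 and 9. Apart from control 8 the groups interleaved, with control 9 between Cre 11 and Cre 12. Ciita averaged -0.57 ± 0.47 in Cre and 0.57 ± 1.35 in control (SD, n = 3 each). The difference of -1.13 had a standard error of 0.82 and an adjusted p of 0.626 (limma), and 0.00% of the 2500 liver genes passed in either direction. Its unadjusted p was 0.240, and 2.52% of liver genes were lower and 3.24% higher in Cre at an unadjusted p under 0.05. Its groups overlapped, and 22.6% of liver genes had groups that did not (12.3% lower and 10.3% higher in Cre). With Cre 11 or control 9 left out the Cre libraries lay wholly below the controls, as for 15.6% of liver genes without Cre 11 and 17.0% without control 9. The difference was -0.36 without control 8 and between -1.60 and -0.90 without any other library. Control 8 was the highest library for 56.4% of all liver genes.

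Further class II genes in the liver table were H2-DMb2, H2-Ob and Cd40, 3 of 22 listed. H2-Ob, a chain of H2-DO, which restrains H2-DM in B cells, had -0.57, -1.02 and 0.06 in Cre 10, 11 and 12, against -0.79, 1.97 and 0.34 in controls 7, 8 and 9. H2-DMb2 had -0.55, -1.49 and 0.60 in Cre 10, 11 and 12, against -0.14, 1.76 and -0.17 in controls 7, 8 and 9. Cd40, the receptor through which T cells license antigen-presenting cells, had -0.58, -0.69 and -0.17 in Cre 10, 11 and 12, against -0.96, 2.03 and 0.37 in controls 7, 8 and 9. All 3 peaked in control 8 like Ciita, and below it Cre 12 was second for H2-DMb2 but not for Ciita. None of the 3 passed the test.

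B cell markers, nearly all missing from the BAT table, were in the liver table for 11 of 20, and all 11 were highest in control 8. Their mean was -0.52, -0.83 and -0.13 in Cre 10, 11 and 12, against -0.56, 1.97 and 0.08 in controls 7, 8 and 9. Ms4a1, the CD20 antigen, had 1.52 in control 8 and 1.15 in control 9. The 5 dendritic cell markers in the table averaged -0.11, -0.85 and -0.42 in Cre 10, 11 and 12, against -0.53, 1.82 and 0.09 in controls 7, 8 and 9. The 5 hepatocyte markers averaged 0.34, 0.38 and 0.49 in Cre 10, 11 and 12, against 0.44, -1.51 and -0.13 in controls 7, 8 and 9. Kupffer cell markers, those of the liver's resident macrophages, were in the table for 3 of 6 and highest in control 8, at a mean of 1.70. The 7 of 10 brown adipocyte markers in the table averaged 1.76 in Cre 12, and the 10 skeletal muscle markers 2.21. Of the 7, Elovl3 went the other way, at -0.70 in Cre 12 and 2.21 in control 7. Y-linked genes were highest in control 7, at a mean of 2.02, and stood at 0.27 in control 8. The part of these cells in the liver Ciita value was not tested. Apart from Ciita, 30 of 2499 liver genes (1.2%) lay within a root mean squared difference of 0.25 of its profile over the 6 libraries, and the nearest named ones were Rgs11, Zfp488, Ctla2a, Atp10d and Tbx6, at 0.086 to 0.15.

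**Figure D4:**
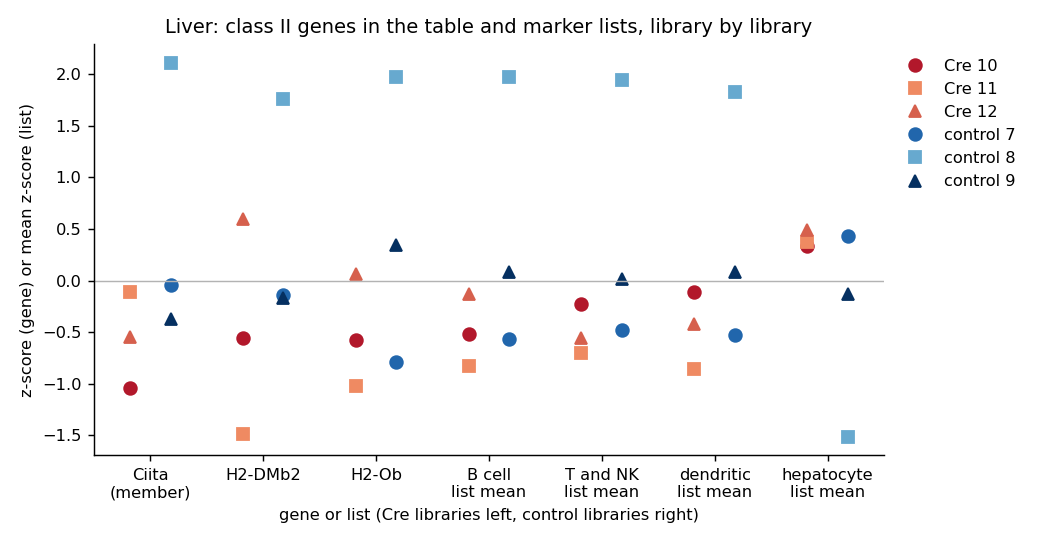
Z-scores of Ciita, H2-DMb2 and H2-Ob and mean z-scores of 4 marker lists in each liver library, with Cre libraries on the left and control libraries on the right. Control 8 is highest for the 3 genes and the B cell, T and NK cell and dendritic cell lists, and lowest for the hepatocyte list, at -1.51.

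Ciita was the only member in both tables, so it alone allowed the tissues to be compared. Cre minus control was -0.93 in BAT and -1.13 in liver. The difference between tissues was 0.21 with a standard error of 1.39 and an adjusted p of 0.998 over the 526 genes in both tables (limma's gene-wise model over 4 groups, in which 0.00% passed). For H2-DMb2 the values were -0.86 in BAT and -0.96 in liver, with a difference of 0.10 and a standard error of 1.43. These standard errors exceed the differences themselves, the tissues were scaled separately, and the test takes BAT and liver as coming from separate mice, which the labels do not state.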

How the data were processed

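RNA was sequenced from BAT and liver, and the authors deposited 1 table per tissue with a score for each of 2500 genes in each library. The members and the gene lists were chosen with earlier results of these data known. From the values, the deposited scores are row z-scores: in liver all 2500 rows sum to 0 and their squares to 6, within 1e-06, and in BAT the squares of the 5 values plus the square of their sum give 6 in all 2500 rows, which places 1 further library in the scaling. The sources used here do not give how the 2500 genes were chosen or whether counts were log transformed. If they were chosen for differing between libraries, shares over the table are no neutral background. The submitters' processing notes list the builds mm9, mm10 and GRCm38 beside the tools TopHat 1.3.3 and DESeq2 1.20.0, with no role. The protocol names directional and non-directional kits without saying which was used, so overlapping genes on opposite strands cannot be told apart.

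Libraries were grouped by their titles. Cre was compared with control by limma 3.58.1 (R 4.3.3) as a gene-wise linear model without variance moderation, because scaling gives each gene the same total variance, two-sided, with Benjamini-Hochberg adjustment over all genes of the table and a threshold of 0.05. Genes with a residual SD under 1e-06 were not tested. The model was tested on simulated data. Alternatives were variance moderation, ranks within each gene, leaving out genes tied at their lowest value (331 in BAT and 61 in liver, no member among them), medians over members, and leaving out each library. Named genes were the members, the first 4 of each list found in a table, the 5 genes nearest in profile per tissue, excluding predicted and clone names, and H2-DMb2. Of these, 2 list genes are not reported here. Positions are from GENCODE M21 and promoters from RefSeq GRCm38.p6. Transcripts were aligned locally with Biopython 1.88, and figures used Python 3.11.15 with matplotlib 3.10.9. Depth is unknown, so no counting interval can be given.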

Additional observations from a re-analysis of the deposited data

How the results depend on the processing

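No paired analysis was possible because library numbers are unique and the labels tie no library to another. No member passed with variance moderation or without tied genes, in either tissue. On ranks no gene of either table passed, and full separation of untied libraries is not enough to pass, so ranks say nothing about how stable the calls are. With 1 library left out, 0 to 1 BAT members and no liver member passed, the 1 being H2-Aa without control 2. Members with non-overlapping groups numbered 0 to 7 in BAT and 0 to 1 in liver. In BAT 7 were lower in Cre without control 2, against 77.0% of all BAT genes. Without Cre 5, 4 were lower (42.0% of all BAT genes), and without control 1, 2 were higher (18.5%). In liver Ciita was lower without Cre 11, as were 15.6% of liver genes, and without control 9, as were 17.0%. The BAT member mean differed by -2.45 to 0.23 when 1 library was left out, and that of Ciita in liver by -1.60 to -0.36. Of 57 alternatives for single members 51 kept direction and side of the threshold, counting 2 rank differences of 0 (Ciita and H2-Eb1 in BAT). The 5 reversals all came without control 1: 0.30 for Cd74, 0.41 for H2-Ab1, 0.51 for H2-Eb1, 0.019 for H2-DMb1 and 0.58 for Ciita. Without control 2 these 5 had -2.38, -2.29, -2.399, -2.52 and -2.43, and H2-Aa -2.71. The BAT minus liver difference of Ciita ran from -1.30 to 1.72 with 1 library left out. It was -0.04 without Cre 5, -1.30 without control 2, -0.03 without Cre 10 and -0.56 without control 8. The cause of these shifts was not tested. Ranks were not applied to the member mean, since they change its unit. Z-scores keep no depth, so what depth limits cannot be stated.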

Other observations

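Among genes of lymphoid tissue the BAT table held 2 of the 10 listed, and they went apart. Ltb, the lymphotoxin beta chain of lymphocytes, had -0.43, -0.13 and -0.51 in Cre 4, 5 and 6, against 2.15 and -0.96 in controls 1 and 2, with control 1 first and Cre 5 second as for the class II genes and control 2 lowest. Ccl21a, a chemokine of lymphatic vessels and lymph node stroma with near-identical copies in the mouse genome, had -0.07, 1.33 and 0.48 in Cre 4, 5 and 6, against -0.95 and -1.57 in controls 1 and 2. Its groups did not overlap, with Cre higher, as for 4.36% of all BAT genes. Cre minus control was 1.84 (standard error 0.58). In limma's gene-wise model its unadjusted p was 0.0496. At an unadjusted p under 0.05, 0.920% of all BAT genes were higher in Cre. The adjusted p of Ccl21a was 0.435 in this model, so the gene did not pass over all genes. Both genes were picked for description after their values were seen.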
